A study of Mus musculus and blank sample with 768 samples.

Results

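Endothelial cells of mouse tumours that held reads of 2 proliferation genes were compared with endothelial cells of the same plates that held none. The cells had been sorted singly as CD45- CD31+ into 3 plates of 96 wells each. CD45 is a surface protein of leukocytes and CD31, encoded by Pecam1, an adhesion protein of endothelium. Plate KM2 held GFP- endothelial cells, and plates KM3 and KM4 held GFP+ endothelial cells, which the labels call cells of the Csf1r lineage. Csf1r encodes the receptor for a macrophage growth factor. The labels of these plates name no mouse strain, allele, age, animal or tumour model, so how GFP was switched on is not described here, and the cells of a plate were taken as 1 sample. The whole series has 768 wells, which also cover tumour macrophages, lymph node endothelium and blood, and its description names blank samples too.

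A well was chosen by its reads of Mki67 and Top2a. It was called cycling when each gene was at 5 CPM or more, where CPM is the reads of a gene per 1000000 reads in genes of that well, and non-cycling when it held 0 reads of both. Of 288 tumour endothelial wells, 253 passed the filter on reads, genes and mitochondrial reads. Of these, 23 were cycling and 202 non-cycling, 225 wells in all, and 28 wells with an intermediate reading went into neither class. None of the 35 wells that failed the filter would have counted as cycling (0 of 35). The 2 rule genes and the genes that travel with them set the classes, so their values are given as a description only. With 5, 7 and 11 cycling wells on KM2, KM3 and KM4, no animals named and wells that are not replicates, no test was run and no p-value is given. Each ratio below is the mean of 3 plate ratios, with the SD over plates.

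A cell that divides copies its DNA in S phase, sets up the spindle in G2 and separates its chromosomes in mitosis. Mki67 encodes a protein that coats mitotic chromosomes, and Top2a the topoisomerase that untangles DNA strands before they part. Endothelium of normal adult vessels rarely divides, while growing tumour vessels recruit dividing endothelial cells behind migrating tip cells, which lead the sprout and carry high Esm1, Angpt2 and Apln. Vascular growth factors act through the receptors encoded by Kdr, Flt1 and Flt4.

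The cycling class was small on every plate. It took 5 of 84 wells on KM2 (5.95%, exact 95% Clopper-Pearson interval 1.96 to 13.3%), 7 of 84 on KM3 (8.33%, 3.42 to 16.4%) and 11 of 85 on KM4 (12.9%, 6.64 to 21.98%). Both GFP+ plates together gave 18 wells (10.7%, 6.44 to 16.3%). The interval of the GFP- plate overlapped this range, and gate and plate cannot be told apart. Tumour macrophages of plate KM1 (CD45+ CD31- GFP-) met the same rule in 11 of 81 wells (13.6%, 6.98 to 23.001%), and lymph node endothelium in 1 of 251 (0.398%, 0.0101 to 2.20%). These intervals, like all intervals of well shares here, cover counting error only. Amplified reads without molecular identifiers are not independent molecules, so the intervals over reads given below may be too narrow.

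Mki67 (chromosome 7, 135689784 to 135716361, minus strand) ran from 5.77 to 2462 CPM in the 23 cycling wells, with a median of 528. Top2a (chromosome 11, 98992943 to 99024189, minus strand) ran from 5.77 to 2483 CPM, with a median of 716. The well nearest the threshold, on KM2, held 2 reads of each gene (5.77 CPM), and the next lowest reading was 33.9 CPM. Just outside, the lesser of the 2 genes reached 1.04 CPM in an unclassified well. Of the 28 unclassified wells, 13 reached 5 CPM of Mki67 alone, 7 of Top2a alone and 8 of neither.

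Cycling wells were deeper and held more genes than non-cycling ones, which touches every comparison below. Median reads in genes were 1029125 in cycling wells (172996 to 2130767) and 789430 in non-cycling wells (58373 to 2672994). Median genes with a read were 4301 and 3212. With each well drawn down to 100000 reads the medians were still 3609 and 2759 genes, over 23 and 198 wells. Mitochondrial reads made up a median of 4.57% and 3.23%. The share that depth takes in the differences between the classes was not tested beyond the drawn-down values given beside the genes. Each well was a library of its own, and 0 well names occurred in both deposited tables.

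The label of the plates held in both classes. All 17 general endothelial genes had reads in each class. Their summed level ran from 4494 to 16299 CPM in cycling wells with a median of 8338, and from 0 to 23605 CPM with a median of 11449 in non-cycling wells. The level of 0 came from 1 non-cycling well. Ptprc, which encodes CD45, had 0 reads in both classes. Of 16 macrophage genes, 10 had reads in cycling wells and 15 in non-cycling wells, at a median sum of 0 in both and with highest sums of 231 and 648 CPM. Adgre1, Fcgr1, Fcgr3, Itgam, Tyrobp and Cx3cr1 were at 0 in all cycling wells. None of 12 lymphocyte genes and none of 7 epithelial genes had reads in a cycling well, against 6 and 2 in non-cycling wells. Of 12 fibroblast and pericyte genes, 2 had reads in cycling wells (Kcnj8 and Abcc9) and 5 in non-cycling wells. The other 10, among them Pdgfrb, Rgs5, Acta2, Cspg4 and Col1a2, were at 0 in cycling wells. Rgs5, Cspg4 and Col1a2, with Dcn, Lum, Des and Thy1, were at 0 in non-cycling wells too. The 5 genes with reads there were Kcnj8, Abcc9, Pdgfra, Pdgfrb and Acta2. The sum of the 12 genes had a median of 0 CPM in cycling and 50.5 CPM in non-cycling wells. It reached 718 CPM in cycling and 4113 CPM in non-cycling wells. Of 7 melanocyte genes 1 had reads in cycling and 3 in non-cycling wells, at sums of up to 18.4 and 2.0 CPM, and of 9 platelet and red cell genes 3 and 6, at sums of up to 94.6 and 562 CPM. The part that such cells take in the differences below was not tested.

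The cycling wells differed among themselves in the part of the cycle their reads pointed to. The S phase genes summed to between 1671 and 19940 CPM, with a median of 9814, and the 248 G2 and mitosis genes left without the rule genes to between 22413 and 79595 CPM, with a median of 51026. Ccnb1, the cyclin of mitotic entry, had reads and Mcm5, a subunit of the replicative helicase, had none in 7 wells. The reverse held in 3 wells, both genes had reads in 9, and neither had in 4. In non-cycling wells the medians of the same sums were 1415 and 9291 CPM. Only 2 of 202 non-cycling wells exceeded the lowest cycling well in the G2 and mitosis sum, and 9 of 28 unclassified wells did. No sum of S phase genes in a non-cycling well reached the cycling median (0 of 202), but the ranges of the S phase sum overlapped. Non-cycling wells ran up to 9075 CPM, above the lowest cycling well at 1671 CPM.

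**Figure D1:**
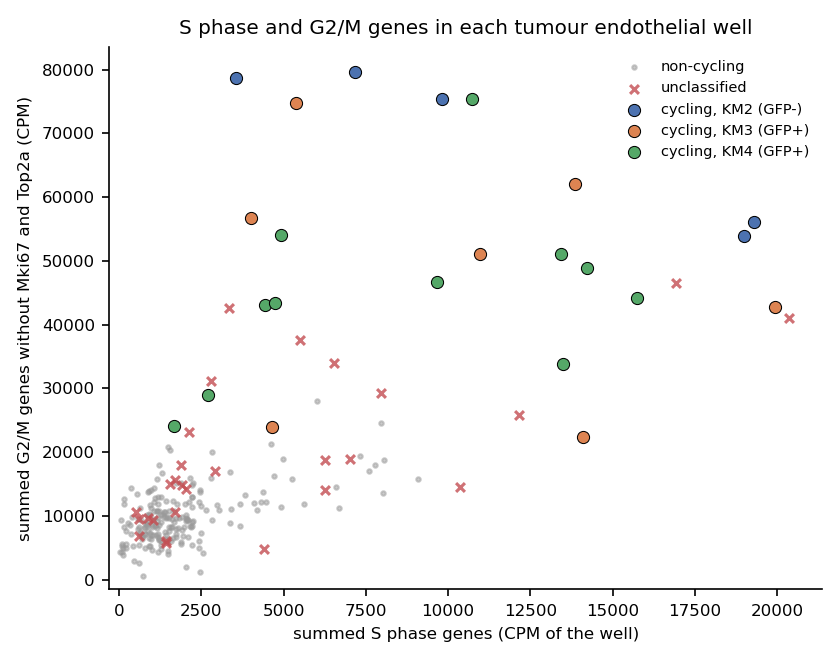
Each point is 1 tumour endothelial well, with the summed S phase genes on the x axis and the summed G2 and mitosis genes without Mki67 and Top2a on the y axis, both in CPM. Coloured circles are the 23 cycling wells by plate, grey dots the 202 non-cycling wells and crosses the 28 unclassified wells. The cycling wells spread from 22413 to 79595 CPM on the y axis, and 3 of them lie below the highest non-cycling well.

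The other 2 markers named with the rule followed it. Ube2c, a ubiquitin-conjugating enzyme of mitotic exit, was at 909, 509 and 328 CPM in the cycling wells of KM2, KM3 and KM4 and at 3.20, 8.97 and 0 CPM in the non-cycling wells. Cenpf, a kinetochore protein, was at 117.4, 537 and 216 CPM against 3.83, 0.73 and 0.05. Among the cell cycle genes with the highest ratios were Hist1h2ap, a histone H2A (log2 ratio 8.41), Pbk, a mitotic kinase (7.77), Prc1, a bundler of the central spindle (7.68), and Nusap1, a binder of spindle microtubules (7.16). Of 472 measured cell cycle genes other than the rule genes, 266 (56.4%) were at least 2-fold higher in the mean of the 3 plates and higher on each of them. These counts follow from the rule and support nothing further.

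The genes outside the cell cycle lists were the main question. Absence from these lists does not mean that a gene has no part in division. Wdr62 of the spindle pole, Cdk5rap2 of the centrosome and the checkpoint kinase Chek2 are among the highest genes named below. A gene counted as measured when either class had 1 CPM or more of it and reads in 5% of its wells or more, which left 10492 such genes. It counted as higher or lower when the mean ratio was at least 2-fold and every plate had the same sign. On summed reads, 413 genes (3.94%) were higher and 1948 (18.6%) lower in cycling wells, and the median of all 10492 was -0.52 on the log2 scale. This measure leaned to lower values where genes were sparse. A small class more often sums to 0, but the part this takes in the lean was not tested. Of genes with reads in under 10% of wells 24.98% were lower, and of genes with reads in over 75% of wells 3.79%. When each well instead weighed the same, as the difference of mean log2(CPM + 1) per well, 978 genes were higher, 289 lower and the median was 0.15. The share of called genes that were higher thus went from 17.5% to 77.2% between the measures. Only genes called by both are counted as different below. There were 306 higher (2.92%) and 215 lower (2.05%), and with TMM scaling these were 240 and 271.

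The 15 highest genes outside the cell cycle lists were taken from the 52 (0.496%) that met the naming rule, and the 15 lowest from 90 (0.858%). The rule asks that the higher class reach 20 CPM and 25% of its wells, and that the classes be 2-fold apart on every plate, both when reads are summed and when the CPM of wells are averaged. The 15 highest were Phgdh, Mlf1, Wdr62, Eri2, Nrm, Gxylt1, Ttc32, Mre11a, Cdk5rap2, Ulbp1, Chek2, Zfp367, Ccdc184, Nfatc3 and Dnajc9. The 15 lowest were Aqp1, Slc16a3, Angpt2, Ctage5, Inpp4a, Kdm5b, Anxa4, Kcnj2, Pld3, Dtx3, Ubald1, Neu1, Ackr3, Cerk and Kcnj8. Each of these 30 kept its direction and the 2-fold size in the 18 other settings tried, several of which (a plate left out, averaged well CPM) repeat what the rule already asked. The rule used the same wells, so the well intervals of genes it named, apart or overlapping, describe counts and test nothing.

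**Figure D2:**
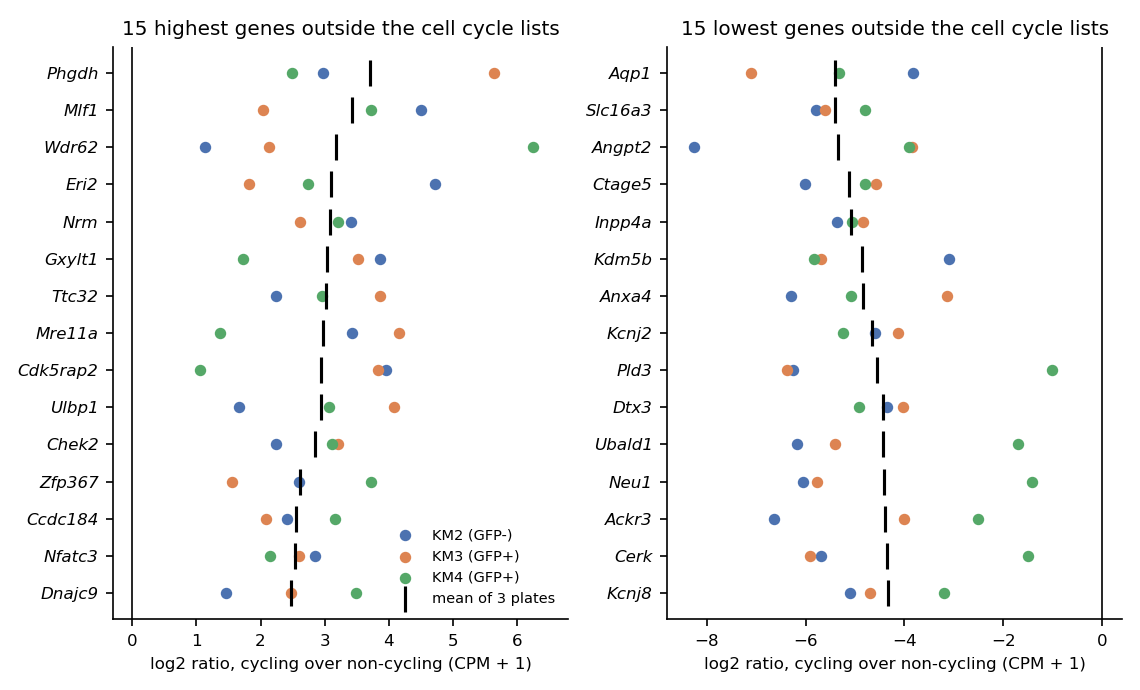
The log2 ratio of cycling over non-cycling wells (CPM + 1, summed reads) is on the x axis for the 15 highest and the 15 lowest genes outside the cell cycle lists. Points are the 3 plates and black bars their mean. All 45 points of the highest genes lie above 1 and all 45 of the lowest lie below -1, as the naming rule requires, while Angpt2 spans -8.25 to -3.85 and Phgdh 2.50 to 5.64.

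Chek2, Mre11a and Dnajc9 were picked from the 15 for their known roles with DNA and chromatin, after their values were seen, and not tested as a group. Chek2, a kinase of the DNA damage checkpoint, was at 23.6, 98.3 and 136.3 CPM in the cycling wells of KM2, KM3 and KM4 and at 4.21, 9.71 and 14.9 CPM in the non-cycling wells. Its log2 ratio was 2.85 ± 0.54 (SD, n = 3 plates), and it had reads in 12 of 23 cycling wells (52.2%, 30.6 to 73.2%) and 29 of 202 non-cycling wells (14.4%, 9.83 to 19.96%). The well intervals did not overlap. Mre11a, a nuclease of double-strand break repair, was at 55.8, 92.6 and 36.2 CPM against 4.29, 4.26 and 13.4, a ratio of 2.98 ± 1.45. On KM3, 4 of 7 cycling wells had Mre11a reads, with a median of 0.48 CPM and a highest well of 1039 CPM. Dnajc9, a histone chaperone cofactor, was at 115.4, 178.7 and 128.8 CPM against 41.2, 31.5 and 10.55, and had reads in 14 cycling wells (60.9%, 38.5 to 80.3%) and 30 non-cycling wells (14.9%, 10.2 to 20.5%). The ratio of Dnajc9 was 2.47 ± 1.01, and its well intervals did not overlap.

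Other genes of the 15 differed in how even they were between plates. Cdk5rap2, a scaffold of the centrosome, was at 98.98, 55.8 and 10.1 CPM against 5.46, 2.97 and 4.38, and its 5 cycling wells on KM2 held 0, 28.9, 72.96, 78.7 and 817 CPM. A single well thus carried much of the KM2 level. Wdr62, a spindle pole protein, was at 15.2, 3.40 and 84.1 CPM against 6.4, 0 and 0.12, with a ratio of 3.17 ± 2.71. Nrm, a protein of the inner nuclear membrane, was more even, at 189.5, 36.2 and 58.2 CPM against 16.9, 5.06 and 5.40 (3.08 ± 0.41). Ulbp1, a ligand of an activating receptor of natural killer cells, had reads in more cycling wells than any other of the 15, in 15 of 23 (65.2%, 42.7 to 83.6%) against 17 of 202 (8.42%, 4.98 to 13.1%). Its levels were 91.01, 71.1 and 62.9 CPM in cycling wells and 28.01, 3.27 and 6.59 CPM in non-cycling wells, and its log2 ratio ran from 1.67 to 4.08 over the plates.

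The remaining genes of the 15, Mlf1, Eri2, Gxylt1, Ttc32, Zfp367, Ccdc184 and Nfatc3, had ratios between 2.53 and 3.43 on the log2 scale. They had reads in 26.1 to 47.8% of cycling and 1.98 to 14.4% of non-cycling wells. Nfatc3, a calcium-regulated transcription factor, had the smallest SD of these over plates, at 88.9, 66.6 and 74.9 CPM against 11.4, 10.2 and 16.1 (2.53 ± 0.36). On KM2, however, its reads came from 1 of 5 cycling wells, at 274 CPM, and the same held for Chek2 (164.95 CPM) and Zfp367 (210.1 CPM).

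Among the 52 genes that met the naming rule the largest ratio belonged to Phgdh (chromosome 3, 98313170 to 98339990, minus strand), the enzyme that opens serine synthesis. It was at 231, 97.6 and 84.97 CPM in the cycling wells of KM2, KM3 and KM4 and at 28.5, 0.97 and 14.2 CPM in the non-cycling wells (3.71 ± 1.70). Only 8 of 23 cycling wells had reads (34.8%, 16.4 to 57.3%), against 12 of 202 (5.94%, 3.11 to 10.1%), and the 5 cycling wells of KM2 held 0, 0, 0, 312 and 500 CPM. Most cycling wells thus read 0, and the class level came from a minority of them. Drawn down to equal reads, Phgdh was found in 34.8% of cycling and 5.05% of non-cycling wells.

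Phgdh belonged to a list of 23 genes of nucleotide and one-carbon metabolism, which supplies the bases of new DNA. Of these, 8 were higher by both measures and 0 lower, against 2.92% of all genes. The list median was 0.50 against -0.52 for all genes on summed reads, and 1.13 against 0.15 per well. Psat1, the next step of serine synthesis, was at 256, 18.5 and 104.3 CPM against 5.76, 7.78 and 13.1 (3.10 ± 2.06). Mthfd2, a mitochondrial folate enzyme, was at 60.7, 90.1 and 3.97 CPM against 11.7, 1.17 and 3.30, so that KM4 hardly differed (log2 0.21). Gart, an enzyme of purine synthesis, was at 72.95, 211 and 144.5 CPM against 39.7, 11.03 and 29.2 (2.42 ± 1.64). The other members called were Umps and Cad of pyrimidine synthesis (2.12 and 1.79) and Paics and Impdh2 of purine synthesis (1.03 and 1.05), named to complete the count. In wells drawn down to equal reads a median of 6 of the 23 genes was found in cycling wells, with a range of 0 to 16, and of 3 in non-cycling wells, also with a range of 0 to 16.

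Some genes of the nuclear pore and of nuclear transport were higher as well. By both measures 5 of 18 were higher and 0 lower, against 2.92% and 2.05% of all genes, and on summed reads 12 of the 18 were called in neither direction. The list median was 0.67 on summed reads and 1.58 per well, against -0.52 and 0.15. Nup133 and Nup107, scaffold subunits of the pore, had ratios of 2.02 ± 0.77 and 1.79 ± 1.09. Nup205, an inner ring subunit, had 1.55, which became 0.67 without KM4. The other members called were the export receptor Xpo1 (1.35) and the import receptor Kpnb1 (1.18). Drawn-down wells held a median of 9 of the 18 genes when cycling and of 4 when non-cycling.

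Ribosome biogenesis was mixed. By both measures 4 of 24 genes were higher and 0 lower, against 2.92% and 2.05% of all genes. On summed reads alone, however, another 4 were lower, against 18.6% of all genes. The list median was -0.24 on summed reads and 0.73 per well. Nop58, a core protein of the small nucleolar particles that modify ribosomal RNA, was at 200.3, 202 and 108.1 CPM in the cycling wells of KM2, KM3 and KM4 and at 26.6, 53.95 and 16.99 CPM in the non-cycling wells (2.45 ± 0.51). Nip7 and Pes1, other assembly factors, had ratios of -3.47 and -3.35 on summed reads and of -0.89 and -0.80 per well. Nucleolar proteins therefore did not move as 1 block by either measure. Of 22 splicing genes 1 was called by both measures, Lsm5 (1.63 ± 0.49), although the list median of 0.58 stood above that of all genes and per well it was 1.69. None of 23 nuclear genes of oxidative phosphorylation was called (medians 0.11 and 0.65), none of 10 chaperonin genes (0.00 and 0.47), and of 20 ribosomal protein genes none by both measures (0.00 and 0.32).

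**Figure D3:**
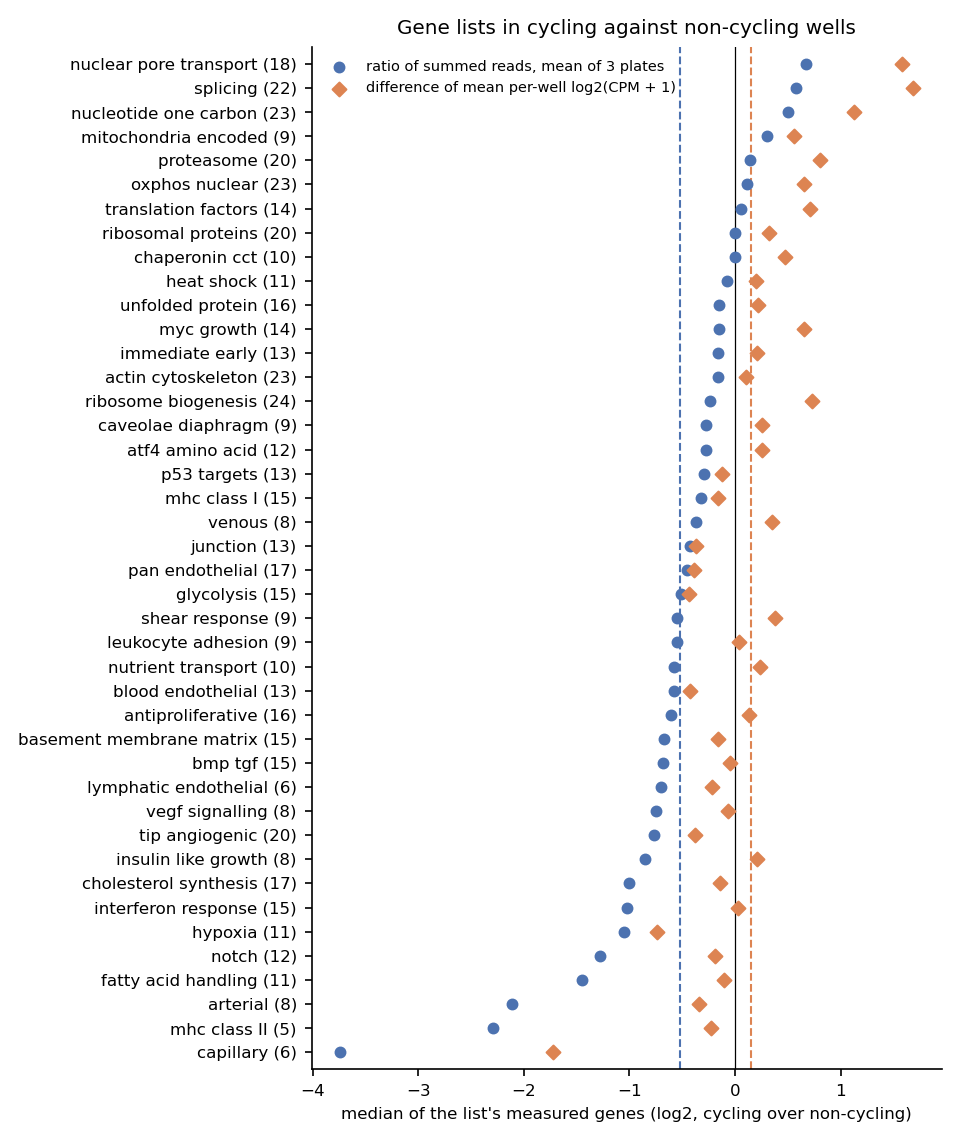
Median log2 ratio, cycling over non-cycling, of each gene list with at least 5 measured genes outside the cell cycle, with the number of measured genes in brackets. Circles are ratios of summed reads and diamonds differences of mean per-well log2(CPM + 1), and dashed lines are the medians of all measured genes, -0.52 and 0.15. The capillary list lies lowest by both measures (-3.74 and -1.72), and the nuclear pore list is highest on summed reads (0.67).

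Promoter sequence was looked up for the named genes, since cell cycle genes share short motifs there. E2F factors, which switch on S phase genes, bind motifs such as TTTCGCGC, TTTGGCGC and TTTCCCGC, and these letters were searched on both strands in the 250 bases before each RefSeq gene start (build GRCm38.p6). Of the 15 highest genes 14 had a promoter in the table, and 3 of these (21.4%) held a motif, against 11.2% of measured cell cycle genes, 3.4% of measured genes outside the cell cycle and 1.8% of all promoters. Of the 15 lowest, 12 had a promoter and 1 (8.3%) held a motif. The CCAAT box was in 57.1% of the highest and 16.7% of the lowest, against 40.2% of measured genes outside the cell cycle. The cell cycle homology motifs TTTGAA and TTCGAA were in 2 of the highest (14.3%) and 2 of the lowest (16.7%), and in 1054 of 7547 measured genes outside the cell cycle. Over all genes that met the naming rule the shares of CCAAT and of E2F motifs lay closer to the background. CCAAT was in 52.5% of 40 higher and 34.7% of 72 lower genes, and an E2F motif in 17.5% and 2.8%. The E2F share of the higher genes was still above the 3.4% of measured genes outside the cell cycle. The cell cycle homology motifs were in 9 of the 40 higher genes (22.5%) and 9 of the 72 lower genes (12.5%). For the higher genes this share lay further from the background than in the 15 highest. These are counts over few genes, and a match of letters is not a bound site. The 120 bases before the start are shown for 2 of the higher genes with an E2F motif, a higher gene without one, and the lower gene with one. The E2F motif on either strand is in capitals. Other motifs are left in lower case, among them a reverse CCAAT box (ATTGG) in Chek2. They lie at chr7:30280411-30280530 (Wdr62, minus strand), chr13:64153200-64153319 (Zfp367, minus strand), chr5:110839863-110839982 (Chek2, plus strand) and chr1:90203860-90203979 (Ackr3, plus strand).
Wdr62: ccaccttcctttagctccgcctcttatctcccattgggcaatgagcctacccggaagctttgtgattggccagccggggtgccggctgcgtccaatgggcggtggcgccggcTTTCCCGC
Zfp367: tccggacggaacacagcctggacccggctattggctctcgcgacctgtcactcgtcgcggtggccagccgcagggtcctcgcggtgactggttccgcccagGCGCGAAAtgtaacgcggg
Chek2: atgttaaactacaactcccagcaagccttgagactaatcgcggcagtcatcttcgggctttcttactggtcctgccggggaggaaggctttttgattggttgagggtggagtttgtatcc
Ackr3: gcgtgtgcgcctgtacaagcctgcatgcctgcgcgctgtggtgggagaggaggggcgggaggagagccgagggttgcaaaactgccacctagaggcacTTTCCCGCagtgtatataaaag
In Zfp367, a zinc finger factor at 46.4, 60.1 and 88.2 CPM in cycling and 6.83, 19.9 and 5.77 CPM in non-cycling wells, the motif reads on the reverse strand. Ackr3 holds the same letters as Wdr62 although its level was lower in cycling wells.

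Among lists with at least 5 measured genes, that of capillary endothelium had the lowest median in cycling wells. All 6 measured genes of the list were lower on summed reads and 5 of them by both measures, against 18.6% and 2.05% of all genes. The list median was -3.74 on summed reads and -1.72 per well, and it was lower than -1 on each plate (-3.89, -3.40 and -2.51). Aqp1, a channel for water on the plus strand of chromosome 6 (55336432 to 55348555), was at 0, 0 and 2.27 CPM in the cycling wells of KM2, KM3 and KM4 and at 13.3, 135.8 and 129.2 CPM in the non-cycling wells. It had reads in 1 of 23 cycling wells (4.35%, 0.11 to 21.9%) and in 57 of 202 non-cycling wells (28.2%, 22.1 to 34.96%). These well intervals came close without overlapping, and at equal reads the shares were 4.35% and 25.3%.

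Fabp4, a fatty acid carrier of capillaries, was at 0, 0 and 29.05 CPM in cycling and 3.45, 187.2 and 127.2 CPM in non-cycling wells, with reads in 3 and 54 wells. The potassium channel subunit Kcnj8, which is also on the fibroblast and pericyte list, was at 0, 8.55 and 25.1 CPM against 33.3, 248 and 237 (-4.33 ± 1.01). Cd300lg, a surface receptor of capillary endothelium, was at 0.18, 37.4 and 23.1 CPM against 55.7, 163.8 and 182.6 (-3.54 ± 1.82). Rgcc, a cell cycle regulator with high levels in capillaries, was the remaining gene called by both measures (-1.41). Gpihbp1, the lipase anchor of the capillary wall, was lower on summed reads (-2.06) but not with the same sign on each plate per well. At equal reads a median of 2 of the 6 genes was found in both classes, with ranges of 0 to 5 in cycling and 0 to 6 in non-cycling wells. Abcc9, the partner subunit of Kcnj8 and also on the fibroblast and pericyte list, had a ratio of -2.88 that rested on KM2 (-7.04 there, -0.75 and -0.83 on the GFP+ plates).

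Some genes of sprouting tip cells were lower, and others were not. By both measures 6 of 20 were lower and 0 higher, against 2.05% and 2.92% of all genes. The list median was -0.77 on summed reads, against -0.52 for all genes, and -0.38 per well, against 0.15. Angpt2 (chromosome 8, 18690263 to 18741562, minus strand), a ligand that loosens vessel walls, was at 0, 24.5 and 25.9 CPM in the cycling wells of KM2, KM3 and KM4 and at 303, 367 and 405 CPM in the non-cycling wells (-5.34 ± 2.52). All 5 cycling wells of KM2 read 0. Reads were in 5 of 23 cycling wells (21.7%, 7.46 to 43.7%) and 75 of 202 non-cycling wells (37.1%, 30.5 to 44.2%), so the well intervals overlapped and the levels of the positive wells, up to 637 CPM when cycling and up to 6184 CPM when non-cycling, took part in the ratio.

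Esm1 (chromosome 13, 113209659 to 113218098, plus strand), a secreted proteoglycan of tip cells, was at 0, 0 and 0.19 CPM in cycling wells and at 73.2, 97.97 and 285 CPM in non-cycling wells. Summed over plates the Esm1 level was 1887-fold lower, with a 95% interval of 522 to 15580. That interval takes each read as independent, which amplified reads are not. All cycling reads were 2 reads of 1 well. Reads were thus in 1 of 23 cycling wells (4.35%, 0.11 to 21.9%) and in 44 of 202 non-cycling wells (21.8%, 16.3 to 28.1%). The Esm1 intervals of wells overlapped, while the levels of the positive non-cycling wells reached 6005 CPM. Pgf, a ligand of the receptor Flt1, had reads in 0 of 23 cycling wells (exact interval 0 to 14.8%, and 13.04% by the limit of 3 counts that a count of 0 allows) and in 26 of 202 non-cycling wells (12.9%, 8.58 to 18.3%). The shares of Pgf could not be told apart with 23 wells, although its level in the non-cycling class was 91.03 CPM. Unc5b, a guidance receptor, was at 0, 1.76 and 25.9 CPM against 29.3, 50.4 and 84.7 (-3.60 ± 1.71), and Kcne3, a potassium channel subunit, had a ratio of -1.99. Apln, the peptide of tip cells, was not called. It was at 459, 254 and 199 CPM against 249.5, 409.9 and 475, with reads in 12 of 23 and 91 of 202 wells (52.2% and 45.05%). At equal reads the median well held 12 of the 20 tip genes in both classes.

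Adm, the peptide adrenomedullin, is on the tip list and also on that of hypoxia. It was at 37.2, 23.1 and 8.14 CPM in the cycling wells of KM2, KM3 and KM4 and at 249, 222 and 159.5 CPM in the non-cycling wells (-3.35 ± 0.72). Of the 11 measured hypoxia genes 6 were lower on summed reads, 3 by both measures and 0 higher, against 18.6% and 2.05% of all genes lower. The list medians were -1.05 on summed reads and -0.74 per well, against -0.52 and 0.15. Bnip3, a mitophagy receptor, was at 0, 0.12 and 0 CPM against 58.7, 197 and 32.6. It had 1 read in the cycling class, 2332-fold lower when summed over plates. The 95% interval of 419 to 92120 again takes each read as independent, which amplified reads are not. Bnip3 was found in 1 of 23 and 37 of 202 wells (4.35% and 18.3%, intervals 0.11 to 21.9% and 13.2 to 24.4%). Ankrd37, a target of hypoxia factors, was the remaining gene called by both (-2.47). The well intervals of Bnip3 overlapped, as did those of Adm (26.1%, 10.2 to 48.4%, against 43.1%, 36.1 to 50.2%). Of 15 glycolysis genes 2 were lower by both measures, against 2.05% of all genes. The list median was -0.51 on summed reads, against -0.52 for all genes, and -0.44 per well, against 0.15. Genes with reads in 50 to 75% of wells had medians of -0.21 and 0.21 by the same measures. Slc16a3, the lactate exporter, was at 0, 0.94 and 0.19 CPM against 53.9, 94.004 and 32.2 (-5.40 ± 0.52), with reads in 2 of 23 and 58 of 202 wells. Aldoa, the aldolase, was at 564, 391 and 452 CPM against 1119, 1137 and 882 (-1.16 ± 0.33), which became -0.97 without KM3.

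**Figure D4:**
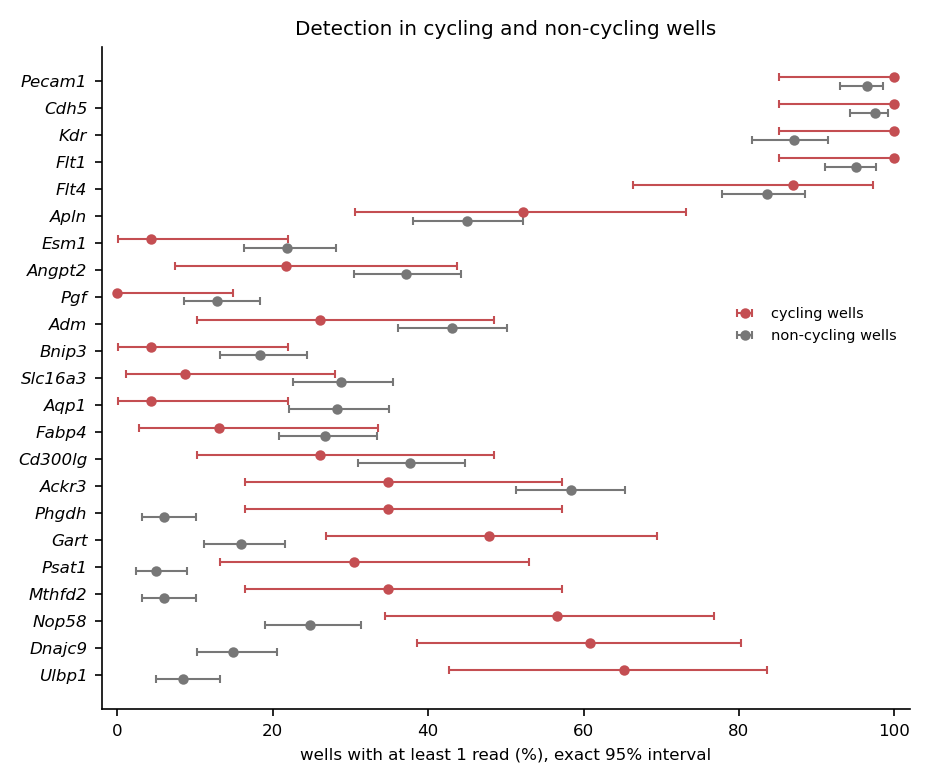
Share of wells with at least 1 read, in percent with exact 95% intervals, for 23 named genes in the 23 cycling wells (red) and the 202 non-cycling wells (grey). Pecam1, Cdh5 and Flt1 are in 95.05% of wells or more of both classes. The intervals of Phgdh, Gart, Psat1, Mthfd2, Nop58, Dnajc9 and Ulbp1 lie apart with the cycling class higher, while those of the lower genes from Esm1 to Ackr3 overlap, except for Aqp1.

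Other lower genes came from different functions. Ackr3, a scavenging receptor of the chemokine CXCL12, was at 1.06, 11.95 and 44.1 CPM in the cycling wells of KM2, KM3 and KM4 and at 206, 207 and 256 CPM in the non-cycling wells (-4.39 ± 2.10). It had reads in 8 of 23 cycling wells (34.8%, 16.4 to 57.3%) and in 58.4% of non-cycling wells (51.3 to 65.3%), intervals that overlapped. Inpp4a, a phosphatase of phosphoinositides, was the most even of the lowest genes over plates, at 0, 1.64 and 0 CPM against 40.1, 74.995 and 32.2 (-5.09 ± 0.26). With cycling levels this low, its ratios depended mainly on the pseudocount of 1 CPM and the non-cycling level. Inpp4a had reads in 1 cycling well and 70 non-cycling wells (4.35%, 0.11 to 21.9%, and 34.7%, 28.1 to 41.7%), and these intervals lay apart. Kdm5b, a histone H3 demethylase, Kcnj2, an inward rectifier potassium channel, and Dtx3 had 0 reads in all 23 cycling wells (exact interval 0 to 14.8% each, and 13.04% by the limit of 3 counts). In non-cycling wells they had reads in 56, 56 and 51 of 202 wells (27.7%, 27.7% and 25.2%, with lower bounds of 21.7%, 21.7% and 19.4%), at class levels of 37.5, 25.6 and 21.5 CPM. The intervals of the 3 genes lay apart, but wells are not replicates and the genes were chosen from these same wells.

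Pld3, Ubald1, Neu1 and Cerk had log2 ratios of -5.40 or lower on both KM2 and KM3, and of -1.01, -1.71, -1.42 and -1.49 on KM4. Neu1, a lysosomal sialidase, was at 0, 0 and 18.5 CPM against 64.9, 53.3 and 51.1. A single cycling well of KM4 carried all Neu1 reads of the class.

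Genes that define endothelium were found in both classes, at a somewhat lower level in cycling wells. The list of 17 had a median of -0.45 on summed reads, against -0.52 for all genes, and of -0.39 per well, against 0.15, beside the median sums of 8338 and 11449 CPM given above. Genes with reads in over 75% of wells had medians of -0.13 and 0.1 by the same measures. Pecam1 was at 627, 1009 and 837 CPM in the cycling wells of KM2, KM3 and KM4 and at 1072, 1235 and 1174 CPM in the non-cycling wells, a ratio of -0.52 ± 0.24. That ratio equals the median of all genes but lies below the -0.13 of genes with reads in over 75% of wells. Cdh5, the cadherin of endothelial junctions, was at 168.7, 368 and 554 CPM against 337, 453 and 457 (-0.34 ± 0.64). Of 17 general endothelial genes 1 was lower by both measures, Cldn5, a tight junction protein, at -1.20 ± 0.79 and at -0.82 without KM4. At equal reads both classes held a median of 14 of the 17 genes.

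The receptors of vascular growth factors were not called either. Kdr, the main signalling receptor, was at 298, 503 and 389.8 CPM against 407, 440.4 and 516 (-0.22 ± 0.36), and 1.34 higher in the mean log2 value per well, with reads in 23 of 23 cycling and 87.1% of non-cycling wells. Flt1, the decoy receptor, was at 448, 1009 and 1103 CPM against 1265, 1238 and 1179.7 (-0.63 ± 0.76), with the lower value of KM2 setting it apart from the other plates. Flt4, the receptor for lymphatic growth factors, was at 37.7, 215 and 260 CPM against 146.9, 273 and 324 (-0.86 ± 0.93), with reads in 86.96% of cycling and 83.7% of non-cycling wells. Of 13 lymphatic genes 6 were measured and none was called by both measures, with a median sum of 397 CPM in cycling and 449 CPM in non-cycling wells. Prox1, the master regulator of lymphatic endothelium, had 0 reads in the cycling wells.

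Of 8 arterial genes 4 were lower on summed reads but 1 by both measures, against 18.6% and 2.05% of all genes. The gene called by both was Efnb2, an arterial ephrin (-3.50 ± 1.34, at 0.89, 1.29 and 16.9 CPM against 35.9, 42.8 and 68.3). Gja4, a gap junction protein of arteries, had reads in 0 of 23 cycling and 21 of 202 non-cycling wells, which 23 wells cannot tell apart. No venous gene of 8 was called. Of 5 measured MHC class II genes none was called by both measures. Their median was -2.29 on summed reads and -0.23 per well, with 0.86 on KM2 against -4.93 and -2.17 on the GFP+ plates.

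The 28 unclassified wells mostly lay between the classes. For 10 of the 15 highest genes their level was between the 2 classes and for 5 at or below both, and for 11 of the 15 lowest it was between and for 4 at or above both. Phgdh was at 103.2 CPM in these wells and Angpt2 at 240 CPM. Slc16a3, at 104.7 CPM, was above both classes.

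The same rule was applied to the macrophages of KM1, with 11 cycling and 60 non-cycling wells, for which a 2-fold ratio on that single plate was counted. Among its 10741 measured genes 2324 (21.6%) were higher and 2822 (26.3%) lower, so a single plate calls many genes. Of the 15 endothelial genes highest in cycling wells, 12 were measured in macrophages, and 7 were higher and 0 lower there. Nrm was at 236 CPM in cycling and 13.8 CPM in non-cycling macrophages, and Chek2 at 89.5 and 7.27 CPM. Of the 15 lowest, 10 were measured, 4 lower and 1 higher, a share not far from the background. Aqp1, Angpt2 and Kcnj8 had 0 reads in both macrophage classes. Phgdh, first among the 15, had 0 reads in both as well. Cycling macrophage wells also held more genes, at a median of 4474 against 3151.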

How the data were processed

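Tumour endothelial wells of plates KM2, KM3 and KM4 and macrophage wells of KM1 were analysed from a table of raw read counts per gene that the authors deposited, with a second table for lymph node and blood wells. Per the labels, single cells were made into libraries by SMART-seq2 in a modified form with 20 cycles of cDNA amplification, and the submitters' processing notes name STAR 2.4.1b, Subread 1.4.6-p2, FastQC 0.11.4 and build mm10. Rows that shared a symbol were summed (51826 rows, 51734 symbols). Wells with at least 50000 reads, 1000 genes and at most 25% mitochondrial reads were kept, without a doublet caller. Reads were summed by class and plate, scaled to CPM, and compared as log2 of CPM plus a pseudocount of 1, averaged over 3 plates. Positions are whole genes of GENCODE vM21 (GRCm38). The members, gene lists and naming rule were chosen with earlier results of these data known. The rule named the 15 highest and 15 lowest genes outside the cell cycle lists, 8 cell cycle genes, the 4 markers, 7 endothelial genes and up to 4 examples per list, and other names complete counts or were chosen after their values were seen. The ratio and call were tried on simulated counts with known fold changes. These were placed only in genes with at least 20 CPM and reads in 25% of wells, so calls in sparser genes were not tested. Alternatives covered pseudocount, filters, thinning, scaling (edgeR 4.0.16 for TMM), the threshold of the rule and each plate left out. Python 3.11.15, numpy 2.4.6, pandas 2.3.3, scipy 1.17.1 and R 4.3.3 were used.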

Additional observations from a re-analysis of the deposited data

Results flagged for a closer look

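The shallowest of the 5 cycling wells of KM2 held 2356 genes, far below the other 4, and it is also the well with 2 reads of each rule gene. It was the only well set apart in 10 such checks on reads, genes, mitochondrial share and cell cycle sums, of which chance flags about 1 in 20. Without it 332 genes were higher and 204 lower by both measures.

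Among 252 results compared between gates, 5 genes were at least 2-fold apart in opposite directions on KM2 and on both GFP+ plates. The differences were not tested, and plate and gate cannot be told apart. Rbpj, the DNA-binding partner of Notch, had a log2 ratio of 1.33 on KM2 and of -2.56 and -4.43 on KM3 and KM4. Its reads came from 2, 1 and 3 cycling wells of these plates. Smad6, an inhibitor of BMP signalling, had 1.70 against -3.32 and -2.67, but from 1 cycling well on each plate, at 65.02, 0.48 and 3.51 CPM. H2-Eb1, an MHC class II chain, had 2.68 against -5.13 and -4.66, but all of its cycling reads came from 1 well. Acsl5, a fatty acid activating enzyme, had 1.09 against -6.65 and -1.26. Eda2r, a receptor induced by p53, had -4.04 against 3.37 and 5.04, from 2 cycling wells.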

How the results depend on the processing

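The 15 highest and 15 lowest genes kept direction and 2-fold size in the 18 alternatives, but leaving out a plate or averaging well CPM repeats conditions by which they were chosen. Of these alternatives, 5 were chosen after seeing the data: both per-well log2 measures, pooling of plates, and leaving out the cycling well with 2 reads of each rule gene or the non-cycling well without endothelial reads. Of the 10492 genes measured in the main setting, 2.92% were higher and 2.05% lower by both measures. With a pseudocount of 5 these shares were 1.87% and 0.98%, with a 50 CPM rule (KM2 then has under 5 cycling wells and drops out) 4.66% and 3.19%, without KM2 4.57% higher, without KM3 4.67% and 5.05%, and without KM4 5.52% and 4.2%. On summed reads the main 413 higher and 1948 lower became 723 lower with the stricter filter on low genes, 832 higher with the 50 CPM rule, 836 higher without KM2, 756 and 2967 without KM3, 816 and 3037 without KM4, and 1190 higher with plates pooled. With fewer plates fewer signs have to match. The per-well log2 measure gave 978 and 289, and 908 and 308 on thinned wells. TMM moved the median of all genes from -0.52 to -0.66. Lists with a median of -1 or lower numbered 9, with the stricter filter 5 and by both per-well measures 2. Lists of 1 or higher numbered 2, both of them cell cycle lists, with the 50 CPM rule 5, without KM2 6, by both per-well measures 5, and pooled 4. Signs turned for the interferon list (0.02 with the stricter filter, 0.03 and 0.04 by the per-well measures, 0.04 pooled), the macrophage list (0.0 with stricter cells, 0.99 without KM3), Mycn (-0.8 with the 50 CPM rule), Jam3, Hspa1b and Igf2r (0.09, 0.11 and 0.4 per well), and Igf2r on thinned wells (0.0). The cause was not tested. No paired analysis was possible because the labels give these wells no replicate numbers; ratios were formed within each plate and averaged, with no test. The number of cycling wells limits shares: for 0 of 23 the exact interval reaches 14.8%.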

Other observations

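Growth and stress genes outside the groups above were uneven. Of 14 translation factors 2 were higher by both measures, against 2.92% of all genes. They were Eif4e, the cap-binding factor, at 1.13 (0.80 without KM3) and Eef1e1 at 1.23. Mxd4, an antagonist of Myc, was lower (-3.04 ± 2.42, at 16.3 against 68.2 CPM over all plates). Slc16a1, a lactate and pyruvate carrier, was higher (2.09 ± 1.74), opposite to the exporter Slc16a3. Of 13 immediate early genes Fosb was higher (1.84 ± 0.32) and Btg2, which is also known as an antiproliferative gene, lower (-2.03 ± 0.91). Btg2 was the only one of 16 antiproliferative genes lower by both measures, although 6 were lower on summed reads. Over all genes 2.05% and 18.6% were lower by these rules. Of 15 MHC class I genes Psmb9, an immunoproteasome subunit, was higher (1.01), a value at the 2-fold limit that fell below it in 7 of 18 alternatives.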
